A study of Prunus avium with 21 samples.

Results

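Water-sprayed (control) flower buds of sweet cherry were compared between 3 and 1 days after treatment (dat), which measures how transcript levels moved within the growth chamber without the dormancy-breaking agent. The comparison was defined by its libraries and not by any measured level, and it uses 6 of the 21 libraries of the study, 3 at 1 dat and 3 at 3 dat. All buds came from the *Prunus avium* cultivar 'Burlat', grafted on the *P. mahaleb* rootstock SL 64, and from 3 neighboring trees, numbered 4, 5 and 6. Branches were cut in January before the chill requirement of the cultivar was met, sprayed with deionized water until drop-off, and kept in a warm chamber under constant light with their stems in tap water. The treated buds cited beside them were sprayed with 2% Dormex, whose active agent is hydrogen cyanamide, and were otherwise kept in the same way. Both days were sampled between 9 and 12 AM, whereas the untreated buds of day 0 were taken at 6 PM. The flower buds of 1 whole branch, at mixed stages, made up 1 replicate, so that 1 and 3 dat were different branches of the same trees. In such pooled buds, fewer cells of a type and less RNA per cell cannot be told apart.

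Buds of temperate fruit trees pass the winter in endodormancy, in which growth is blocked from within until enough cold has accumulated. During that time they carry proteins that protect cells from freezing and drying, such as dehydrins and other late embryogenesis abundant proteins. When warmth lets growth resume, these reserves of protection are given up, cell walls are loosened by expansins, and sucrose is drawn into the bud and broken down.

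Levels are FPKM, fragments per kilobase of transcript scaled to library size, for 112043 transcripts of 48840 assembled genes. The transcripts were assembled without a genome, so no chromosome position is given, and names are matches made in the study to proteins of *Prunus mume* and other species. Descriptions were taken only from the study's supplementary lists, which hold transcripts that the study picked out. These lists gave 4587 transcripts an informative description. A gene called undescribed here is one for which they gave none, and it may be annotated elsewhere. FPKM summed to 695591 to 707663 per library at 1 dat and to 692389 to 722162 at 3 dat. On the log2 scale and across transcripts, which are not independent replicates, control libraries of the same day correlated at r = 0.881 to 0.894 and those of different days at 0.870 to 0.889. FPKM keep no read counts, so counting error could not be measured. The treatment labels were set beside a 2-alkenal reductase transcript (TR26840|c9_g2_i1), picked because it differs with treatment in these same samples. It stood at 1.33 to 7.18 FPKM in the 6 control libraries and at 68.2 to 865 FPKM in the treated libraries of the same days. As the transcript was picked for that difference, this is no independent check, and it does not bear on the day labels.

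Between 1 and 3 dat, the genes called higher in control buds included *EXPA1*, a sucrose synthase and an organ-specific protein, and those called lower included 2 cold-protection genes, a lipid transfer protein and a glucanase. EXPA1 went from 27.2 ± 5.60 to 82.9 ± 29.0 FPKM (SD, n = 3) and a sucrose synthase from 48.9 ± 3.02 to 127.6 ± 44.4 FPKM. A low-temperature-induced 65 kDa protein-like gene went from 120.6 ± 1.61 to 53.2 ± 19.4 FPKM. Most of these differences passed a test only when the spread between replicates was estimated over all 21 libraries, and many of them were largest in tree 5 at 3 dat.

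With the 6 libraries alone, limma on log2(FPKM + 0.5) called 0 of 63081 tested transcripts, a share of 0%. A call required a Benjamini-Hochberg adjusted p not above 0.05 and a log2 FC of 1 or more in either direction. The smallest adjusted p was 0.0611. At an unadjusted p under 0.05, 6641 transcripts (10.5%) differed, 4196 of them higher (6.65%) and 2445 lower (3.88%) at 3 dat. With the tree as a block the count of calls was also 0, with 5607 at an unadjusted p under 0.05. In data simulated from these libraries the same test recovered 16% of 2-fold, 74% of 4-fold and 94% of 8-fold changes. Each share comes from 50 changed transcripts, and there were 7 false calls. Whether these shares hold for transcripts of low FPKM, which are among the 63081 tested, was not tested.

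Estimating the spread over all 21 libraries in 1 fit gave 76 called transcripts of 62855 (0.121%), 51 higher (0.0811%) and 25 lower (0.0398%). When isoforms were summed per assembled gene, the 6 libraries gave 4 called genes of 29388 (0.0136%), with 5002 (17%) at an unadjusted p under 0.05. With the tree as a block limma called 0 genes in that fit, with 3967 at an unadjusted p under 0.05. A fit that joins both choices, added after the data had been seen, called 188 of 29228 assembled genes (0.643%), of which 152 were higher (0.52%) and 36 lower (0.123%) at 3 dat. Rescaling the libraries by median ratios moved that split to 110 higher and 46 lower. A description from the study's supplementary lists was at hand for 19 of the 188. Of the 188 genes, 185 had groups that did not overlap, against 15.6% of all tested genes that were higher and 7.97% that were lower without overlap. A call from these same libraries favors groups that do not overlap, so the 185 are no further evidence for the calls. In what follows, a gene is called where this last fit called it, its log2 FC and standard error (SE) are those of the 6 libraries with isoforms summed, and an adjusted p without further remark is that of the 21-library limma fit. The pseudocount of 0.5 FPKM makes the log2 FC of genes near or under that level smaller than the ratio of the FPKM.

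The calls depended on single libraries. Without the 3 dat library of tree 5, 8 genes were called, 7 of them among the 188, and without the 3 dat library of tree 4 there were 432. Leaving out another library gave 24 to 113 calls. Of the 152 higher genes, 122 had their highest 3 dat level in tree 5, against 12042 of all 29388 tested genes. Without the 3 dat library of tree 5, 4 described genes stayed called, namely *EXPA1*, the sucrose synthase, a nitrite reductase and a flavonoid 3-O-glucosyltransferase. *EXPA1* and the sucrose synthase were also among the 5 genes called under every leave-out.

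**Figure D1:**
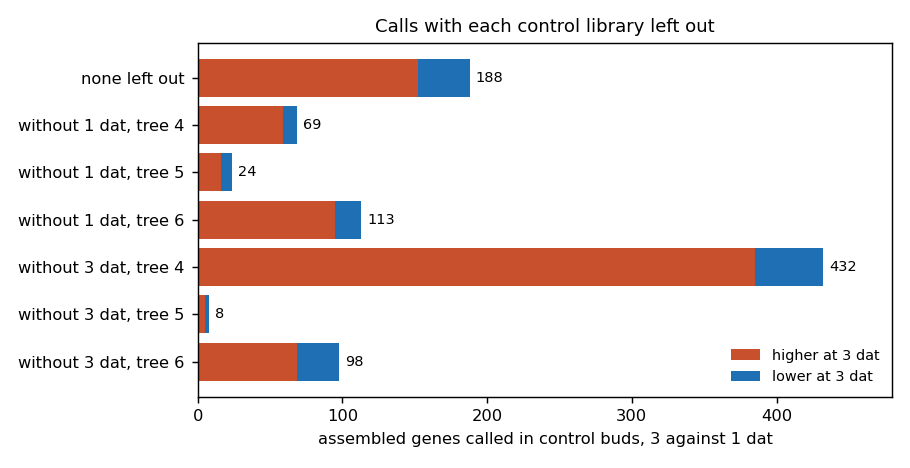
Number of assembled genes called between 3 and 1 dat in control buds (horizontal axis), with all 21 libraries in 1 fit and with each of the 6 control libraries left out in turn. Red bars stand for genes higher and blue bars for genes lower at 3 dat. The count was 188 with every library, 8 without tree 5 at 3 dat and 432 without tree 4 at 3 dat.

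Expansins loosen the cell wall so that cells can extend. *EXPA1* (TR9861|c0_g1) stood at 28.3, 21.2 and 32.3 FPKM in trees 4, 5 and 6 at 1 dat and at 60.6, 116 and 72.4 FPKM at 3 dat. Every library at 3 dat was above every library at 1 dat, and tree 5 was the highest at 3 dat and the lowest at 1 dat. The log2 FC was 1.55 (SE 0.25, adjusted p = 0.00596, and 0.0855 with the 6 libraries), and 1.29 without tree 5 at 3 dat (adjusted p = 0.0373). Day 0 libraries held 11.8 to 17.5 FPKM and control libraries at 6 dat 234 to 331 FPKM.

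*EXPA11* (TR15864|c0_g1) is shown by its sequence because one was available for it in the study's supplement. Its name rests on a transcript that holds only the front of a coding sequence. The study's supplementary sequence has 399 bases, and the reading frame that begins at base 122 runs for 92 codons without a stop to the end of the fragment. The first 150 bases of that frame, bases 122 to 271, are given below 5′ to 3′, with the start codon in capitals.
EXPA11: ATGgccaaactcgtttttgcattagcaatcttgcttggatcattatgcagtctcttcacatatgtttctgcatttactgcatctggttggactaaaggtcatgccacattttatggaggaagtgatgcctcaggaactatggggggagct
Its level was 0.643, 0.663 and 0.920 FPKM at 1 dat and 1.85, 4.00 and 2.20 FPKM at 3 dat (log2 FC 1.31, SE 0.32, adjusted p = 0.0285). The groups did not overlap, but both lay in a range where the pseudocount matters. Without tree 5 at 3 dat the log2 FC was 1.03 and the adjusted p was 0.203.

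Of the 3 other genes annotated as expansins that are given here, 1 was called. An expansin-A1-like gene (TR33092|c1_g1) went from 1.34, 1.09 and 0.551 FPKM to 1.78, 9.16 and 6.96 FPKM (log2 FC 1.91, SE 0.54, adjusted p = 0.0356). In tree 4 it was 1.34 and 1.78 FPKM, and its call was lost without tree 5 at 3 dat (adjusted p = 0.236). An expansin assembled as TR33092|c2_g1 went from 13.9, 9.30 and 14.9 to 18.3, 28.0 and 22.3 FPKM (log2 FC 0.83, adjusted p = 0.124). Its neighbor TR33092|c6_g1 went from 9.54, 7.58 and 9.54 to 12.7, 25.0 and 15.9 FPKM (log2 FC 0.92, adjusted p = 0.0160), which is under the fold threshold. Reads shared between such close family members were divided by the authors' estimator, so that their single values are uncertain. A gene of the cellulose synthase family (TR27577|c0_g1), whose members build wall polysaccharides, was lower, with 30.1, 26.1 and 26.4 FPKM at 1 dat and 13.9, 8.39 and 17.1 FPKM at 3 dat (log2 FC -1.09, SE 0.23, adjusted p = 0.0296). Over the list of cell wall genes, 19 of 32 tested were higher and 13 lower, near the share over all genes (17412 of 29388 higher). On that list 3 were called higher and 1 lower (0.52% and 0.123% of all genes), and the median log2 FC was 0.17 against 0.07 over all tested genes.

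Sucrose synthase cleaves sucrose into fructose and UDP-glucose, the latter a building block of cell walls. The gene TR35421|c3_g1 stood at 46.9, 47.4 and 52.4 FPKM at 1 dat and at 101, 179 and 103 FPKM at 3 dat (log2 FC 1.32, SE 0.21, adjusted p = 0.00670). Tree 5 was again the highest at 3 dat, and without it the log2 FC was 1.05 (adjusted p = 0.0479). At 6 dat the control libraries held 409 to 485 FPKM. Another gene, annotated as sucrose synthase 3 (TR12237|c2_g2), moved the other way, from 340, 381 and 353 to 262, 190 and 230 FPKM (log2 FC -0.66, adjusted p = 0.0708), without overlap and without a call. Of the 27 genes for sugar transport, starch and sucrose, 13 were higher and 14 lower, with a median log2 FC of 0.00 and 1 call. A chloroplastic beta-amylase (TR24912|c1_g2), which breaks down starch, was listed at 210, 220 and 253 FPKM at 1 dat and 182, 143 and 194 FPKM at 3 dat (log2 FC -0.40, adjusted p = 0.144).

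**Figure D2:**
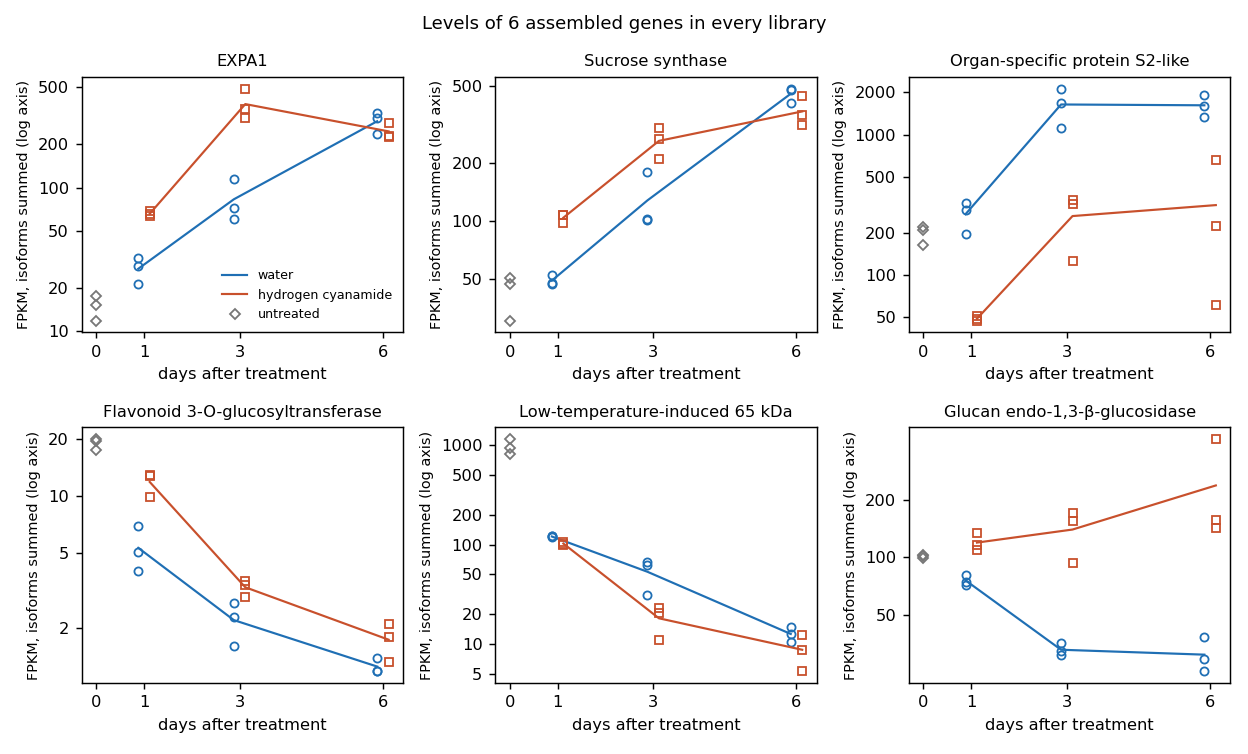
FPKM with isoforms summed (vertical log axis) of 6 assembled genes against days after treatment, with 1 point for each library and lines through the group means of water-treated (blue) and hydrogen cyanamide-treated (red) buds. Untreated buds at day 0 are grey. In control buds *EXPA1* went from 21.2 to 32.3 FPKM at 1 dat to 60.6 to 116 FPKM at 3 dat, and the glucanase from 72.1 to 81.0 to 30.9 to 35.6 FPKM.

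Of the 10 tested genes that protect cells against cold and drying, 2 were called lower at 3 dat, against 0.123% of all genes, and 0 were called higher. Neither call held without tree 5 at 3 dat. All 10 had a negative log2 FC, whereas 11976 of 29388 tested genes did. Of the 10, 7 were lower without overlap of the groups, against 7.97% of all tested genes. The median log2 FC was -0.55 against 0.07 over all tested genes, and it lay between -0.68 and -0.42 when single libraries were left out. Tree 5 held the lowest 3 dat level for 9 of the 10 genes, against 8153 of all 29388 tested genes. The low-temperature-induced 65 kDa protein-like gene (TR26397|c1_g2), which belongs to a family induced by cold and abscisic acid in *Arabidopsis*, stood at 121, 119 and 122 FPKM at 1 dat and at 66.7, 30.9 and 62.0 FPKM at 3 dat (log2 FC -1.25, SE 0.26, adjusted p = 0.0374). The other called gene, annotated only as cold-regulated protein (TR34290|c0_g1), stood at 316, 278 and 295 FPKM and then at 172, 95.2 and 177 FPKM (log2 FC -1.05, SE 0.22, adjusted p = 0.0296). In both the groups did not overlap, and without tree 5 at 3 dat the log2 FC were -0.90 and -0.76 (adjusted p = 0.239 and 0.205). The levels at the other days continue the order, with 815 to 1157 FPKM at day 0 and 10.3 to 14.9 FPKM at 6 dat for the first gene, and 1831 to 2466 FPKM and 12.8 to 14.5 FPKM for the second.

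The dehydrins annotated as cold-shock protein CS120-like include the most abundant gene of the list. It (TR26333|c2_g1) stood at 8810, 9339 and 8899 FPKM at 1 dat and at 7410, 5274 and 7855 FPKM at 3 dat (log2 FC -0.42, SE 0.18, adjusted p = 0.377). Both other genes of that name were also lower without overlap, with log2 FC of -0.60 (TR25329|c1_g1) and -0.70 (TR9144|c0_g1) and no call. A homolog of the late embryogenesis abundant protein LEA14 (TR12075|c0_g1) went from 212, 189 and 214 to 157, 129 and 161 FPKM (log2 FC -0.47, adjusted p = 0.0451), under the fold threshold. At the other end, stachyose synthase (TR40661|c0_g2), which makes a protective sugar, had a log2 FC of -0.05 and a desiccation-related PCC13-62-like gene (TR27007|c3_g3) one of -0.09, both with overlapping groups and with a sign that turned when 1 library was left out. The list was drawn from transcripts that the study had chosen for a difference between treated and control buds in these same samples, so its direction is not independent evidence, as holds for every list here.

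**Figure D3:**
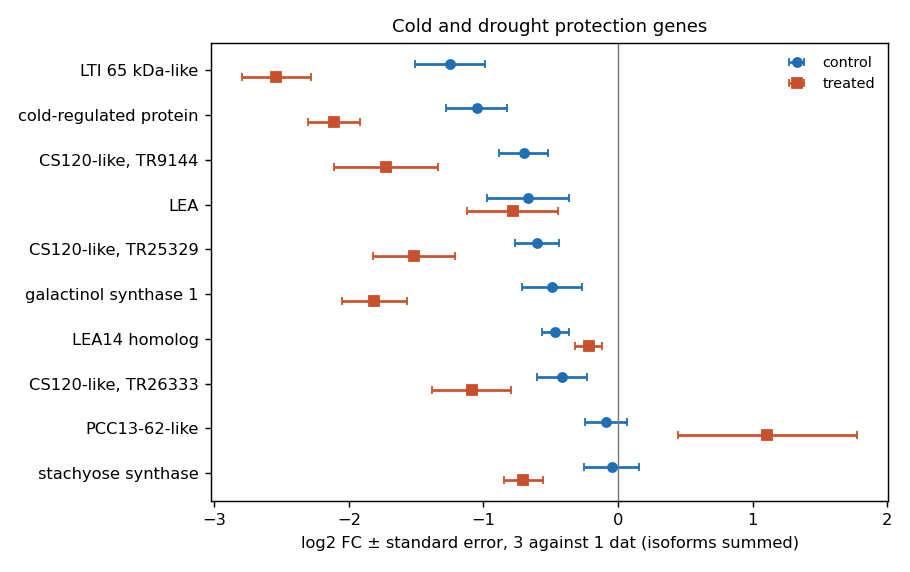
Log2 FC between 3 and 1 dat (horizontal axis, with isoforms summed) of the 10 tested cold and drought protection genes in control (blue circles) and treated (red squares) buds, with bars of 1 standard error. All 10 lie below 0 in control buds, from -1.25 to -0.05, and 9 of 10 in treated buds.

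A called gene of high level was an organ-specific protein S2-like gene (TR26436|c0_g1). It stood at 198, 323 and 293 FPKM at 1 dat and at 2121, 1115 and 1680 FPKM at 3 dat, so that the lowest library at 3 dat was above 3 times the highest at 1 dat. The log2 FC was 2.57 (SE 0.26, adjusted p = 0.0241), and without tree 5 at 3 dat it was 2.83 (adjusted p = 0.0895). Here tree 5 was the lowest at 3 dat, unlike in *EXPA1*. Levels at 6 dat were 1338 to 1902 FPKM.

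Of the 10 described genes called higher, a further 4 are given here. A Rac-like GTP-binding protein (ARAC7, TR4769|c0_g1), a small GTPase of the family that directs polar cell growth, went from 11.3, 8.93 and 11.0 to 15.1, 32.7 and 23.6 FPKM (log2 FC 1.10, SE 0.26, adjusted p = 0.00965). A UDP-glycosyltransferase 85A2-like gene (TR37845|c4_g1), of the enzymes that attach sugars to small molecules, went from 5.94, 7.29 and 6.31 to 14.1, 13.7 and 14.3 FPKM (log2 FC 1.06, SE 0.12, adjusted p = 0.00965). It was among the most even, with all 3 dat libraries between 13.7 and 14.3 FPKM. A NEP1-interacting protein-like gene (TR13605|c1_g1) went from 8.16, 6.06 and 9.09 to 15.9, 32.8 and 27.6 FPKM (log2 FC 1.61, SE 0.27, adjusted p = 0.0105). A gene annotated as a putative AC transposase (TR37806|c0_g1) went from 20.2, 22.1 and 13.5 to 47.2, 43.6 and 39.2 FPKM (log2 FC 1.23, SE 0.18, adjusted p = 0.0149). In none of these did the groups overlap, and none was called without tree 5 at 3 dat (adjusted p of 0.0617 to 0.0945).

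A lipid transfer protein and a glucanase were called lower. The lipid transfer protein (TR15609|c0_g1), from a family that carries lipids to the surface of plant organs, stood at 90.6, 74.2 and 96.7 FPKM at 1 dat and at 33.9, 33.6 and 30.8 FPKM at 3 dat (log2 FC -1.39, SE 0.11). It was called with the 6 libraries as well (adjusted p = 0.0210, and 0.219 with the tree as a block) and with the 21 libraries (adjusted p = 0.0153). Levels at 6 dat were 4.35 to 8.84 FPKM. The glucan endo-1,3-beta-glucosidase, basic isoform-like (TR7096|c0_g1), of the enzymes that cut 1,3-glucans such as callose, stood at 74.5, 72.1 and 81.0 FPKM and then at 35.6, 32.5 and 30.9 FPKM (log2 FC -1.19, SE 0.08, adjusted p = 0.0210 with the 6 libraries and 0.0402 with the 21). With the tree as a block in the fit of 6 libraries no gene was called. Both remaining genes called with 6 libraries had no description in the study's supplementary lists. TR17149|c0_g1 went from 25.2, 20.3 and 24.3 to 67.0, 83.4 and 63.6 FPKM (log2 FC 1.59, adjusted p = 0.000674), and TR26377|c0_g1 from 263, 222 and 263 to 90.6, 102 and 77.1 FPKM (log2 FC -1.47, adjusted p = 0.00670). These 2 stayed called under every leave-out of the 21-library fit.

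Of the 9 described genes called lower, a further 3 are given here, and not every described call is named in this text. Ferredoxin-nitrite reductase (TR10483|c0_g1), which turns nitrite into ammonium in the chloroplast, went from 21.1, 11.0 and 11.2 to 4.26, 8.33 and 5.72 FPKM (log2 FC -1.16, SE 0.31, adjusted p = 0.0204). A UDP-glucose:flavonoid 3-O-glucosyltransferase (TR39309|c0_g1), which adds glucose to anthocyanins and flavonols, went from 6.89, 5.02 and 3.97 to 1.61, 2.70 and 2.28 FPKM (log2 FC -1.09, SE 0.26, adjusted p = 0.0105). Outer envelope pore protein 16-2 (TR33664|c0_g3), a channel of the plastid envelope, went from 15.5, 12.6 and 20.4 to 4.79, 3.65 and 6.83 FPKM (log2 FC -1.59, SE 0.25, adjusted p = 0.0144). The first and second of these stayed called without tree 5 at 3 dat (adjusted p = 0.0479 and 0.0471), while the third did not (adjusted p = 0.114). Of the 3 tested green tissue markers 1 was higher and 2 were lower, these 2 at an unadjusted p under 0.05 (5.31% of all genes). The summed level of the 3 was 526 to 646 FPKM at 1 dat and 365 to 448 FPKM at 3 dat. Its part in these results was not tested. One of them, a chlorophyll a-b binding protein (TR33074|c5_g1), had a log2 FC of -0.53 (adjusted p = 0.0246), under the fold threshold.

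No flowering regulator was called. *FLC* (TR13248|c2_g1), whose *Arabidopsis* counterpart represses flowering before cold, stood at 145, 149 and 164 FPKM at 1 dat and at 133, 101 and 121 FPKM at 3 dat (log2 FC -0.37, SE 0.11, adjusted p = 0.0829). *FT1* (TR13386|c0_g1), named after the florigen of *Arabidopsis*, stood at 10.5, 11.0 and 17.8 FPKM and then at 23.6, 26.8 and 31.2 FPKM (log2 FC 1.06, SE 0.21, adjusted p = 0.141). Its groups did not overlap, yet it was not called, and its level at 6 dat was 6.34 to 10.7 FPKM. A further MADS-box transcription factor (TR10495|c0_g1) went from 77.8, 76.3 and 85.1 to 62.1, 55.6 and 65.5 FPKM (log2 FC -0.38, adjusted p = 0.0443), under the fold threshold. Of the 15 tested genes of the MADS-box and flowering list, 8 were higher and 7 lower and 0 were called by limma with 21 libraries, with 1 higher and 3 lower at an unadjusted p under 0.05 in the 6 libraries (11.7% and 5.31% of all genes). Of 5 anther and pollen markers 4 were tested and 0 were called, with 2 higher and 2 lower. At an unadjusted p under 0.05, 1 was higher (11.7% of all genes) and 0 lower (5.31%). Without overlap of the groups, 0 were higher (15.6% of all genes) and 1 was lower (7.97%). Their summed level was 91.3 to 104 FPKM at 1 dat and 91.2 to 115 FPKM at 3 dat.

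Cytosolic ribosomal proteins were the list with the highest median among those with at least 10 tested genes. Of 19 tested genes, 16 were higher, 10 of them at an unadjusted p under 0.05, against 11.7% of all tested genes higher at that level, and limma with 21 libraries called 0. The median log2 FC was 0.26, and 0.17 after rescaling. Ribosomal protein L35 (TR23168|c0_g1), part of the large subunit, went from 214, 195 and 206 to 260, 308 and 258 FPKM (log2 FC 0.42, adjusted p = 0.0734). Of 42 tested cell cycle and chromatin genes, 24 were higher and 18 lower, 8 and 4 of them at an unadjusted p under 0.05 (11.7% and 5.31% of all genes), and the median was 0.07, as over all genes. The 39 tested heat shock and chaperone genes had a median of -0.09, the 6 clock genes one of -0.17 and the 23 jasmonate genes one of -0.07, with 0 calls by limma with 21 libraries. At an unadjusted p under 0.05 in the 6 libraries, 5 heat shock genes were higher and 8 lower, 0 clock genes higher and 2 lower, and 1 jasmonate gene higher and 2 lower, against 11.7% higher and 5.31% lower of all genes.

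**Figure D4:**
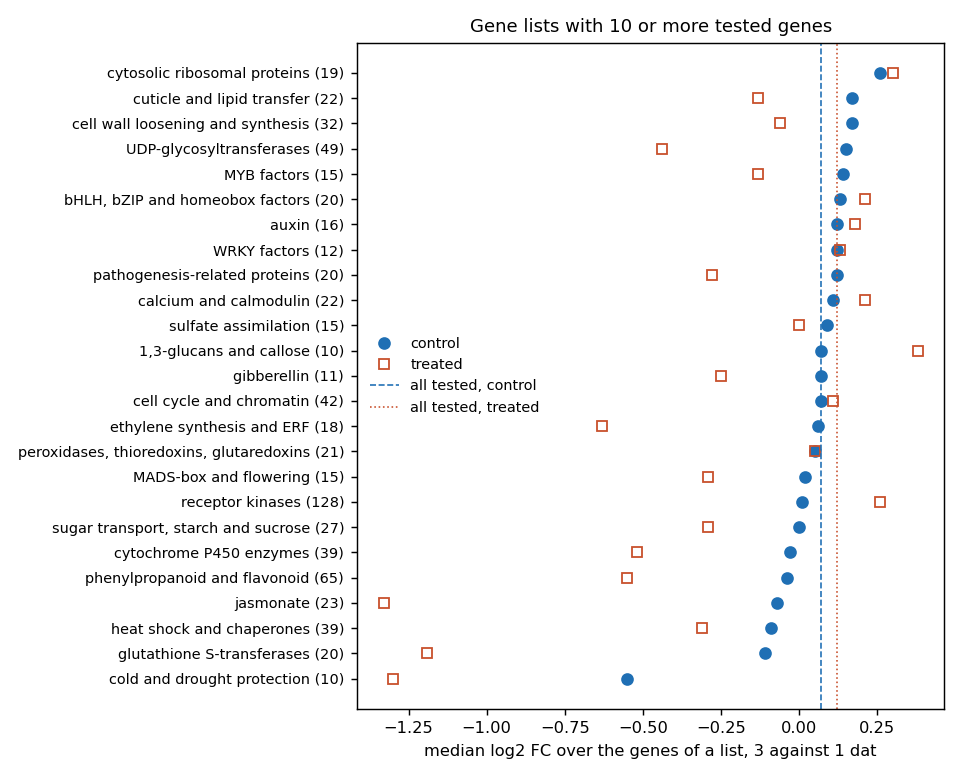
Median log2 FC between 3 and 1 dat (horizontal axis) of the gene lists with at least 10 tested genes, whose number stands in brackets, in control (filled blue circles) and treated (open red squares) buds. Lines mark the medians over all tested genes in control (dashed) and treated (dotted) buds. The cold and drought list is the lowest in control buds, at -0.55, and the ribosomal list the highest, at 0.26.

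Some calls concerned single isoforms while the summed level of the gene differed less. An isoform of the RNA helicase DEAD-box 20 (TR10746|c0_g1_i4) stood at 3.53, 3.63 and 3.22 FPKM at 1 dat and at 11.8, 12.3 and 11.3 FPKM at 3 dat (log2 FC 1.63, SE 0.16, adjusted p = 0.00565), with a log2 FC of 0.32 for the whole gene. An isoform annotated as a bifunctional riboflavin kinase (TR13335|c4_g4_i9) went from 5.64, 3.69 and 4.10 to 0.261, 0.0859 and 0.148 FPKM (log2 FC -2.89, SE 0.32, adjusted p = 0.00565), with -0.11 for the gene. An isoform of the methyltransferase SETD3 (TR37997|c2_g2_i10) went from 2.80, 3.24 and 2.39 to 0.414, 0.247 and 0.389 FPKM (log2 FC -1.96, SE 0.31, adjusted p = 0.0397), with 0.13 for the gene. These single isoforms were each higher or lower in all 3 trees, but reads shared by isoforms were divided by estimation, which limits such values. An isoform of an early light-induced protein (TR27034|c4_g2_i3), which protects chloroplasts from light, was lower together with its gene, from 22.0, 16.9 and 14.1 to 7.96, 7.79 and 8.48 FPKM (log2 FC -1.06, SE 0.18, adjusted p = 0.0270, and -0.95 for the gene).

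Of 35 transcripts that the study names with an identifier, 27 were tested in control buds. The 6-library limma fit called 0 of them, the 21-library fit called 1, which was *EXPA1*, and their median log2 FC was -0.01 against 0.05 over all transcripts. At an unadjusted p under 0.05 in the 6 libraries, 3 were higher and 6 lower (6.65% and 3.88% of all transcripts). The higher ones were *EXPA1*, *EXPA11* and *YUC10*, an enzyme of auxin synthesis (log2 FC 0.64, SE 0.27). The lower ones included a transcript of the catalase *CAT1* (log2 FC -1.18, SE 0.27), which breaks down hydrogen peroxide. Another was a transcript of *MYB21* (log2 FC -0.50, SE 0.18), a regulator of flower maturation in *Arabidopsis*. The log2 FC in this paragraph are those of single transcripts, and the summed level of a gene can differ less. The beta-cyanoalanine synthase *CAS* (TR10732|c0_g1_i1), which detoxifies cyanide, had a log2 FC of -0.29 (SE 0.10). Between the same days in treated buds, 35 were tested, 5 were called higher and 8 lower (2.62% and 1.14% of all transcripts), and limma's test of the difference called 0 of the 35, with 19 at an unadjusted p under 0.05 (10.6% of all transcripts). The study had chosen these transcripts with the treatment difference in these same samples in view, so that the 19 are no independent evidence.

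The same days were compared in treated buds, whose 6 libraries are shared with no part of the 6-library control comparison. There limma with 6 libraries called 2303 of 61284 transcripts (3.76%), 1607 higher and 696 lower, and 802 with the tree as a block. With isoforms summed 2178 of 28871 genes (7.54%) were called, 5.57% higher and 1.98% lower. Across the 26051 assembled genes tested in both, which are not independent replicates, the log2 FC of control and treated buds correlated at r = 0.378 and had the same sign in 67.2%. Of the 4796 genes at an unadjusted p under 0.05 in control buds, 85.4% had the same sign in treated buds, and 17.5% were called there in that direction.

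Of the 188 genes called in control buds 177 were tested in treated buds, 167 had the same sign and 128 (72.3%) were called in the same direction, against 7.54% of all genes called there in either direction. Only 1 was called in the opposite direction. The treated libraries had contributed to the spread with which the 188 were called, though not to their log2 FC. The 152 higher genes had a median log2 FC of 1.27 in control and 1.61 in treated buds, and the 36 lower genes one of -1.34 and -1.26. *EXPA1* went from 63.3 to 68.5 FPKM in treated buds at 1 dat to 306 to 488 FPKM at 3 dat (log2 FC 2.50), and the difference from the control log2 FC was 0.94 (SE 0.33, adjusted p = 0.176). The sucrose synthase had nearly the same log2 FC in treated (1.31) and control buds, with a difference of -0.02 (SE 0.27, adjusted p = 0.986). Of the 10 cold and drought protection genes, 6 were called lower in treated buds, against 1.98% of all genes, and the median log2 FC was -1.30. No difference was called for the low-temperature-induced gene (difference -1.29, adjusted p = 0.138) or the cold-regulated gene (-1.06, adjusted p = 0.129).

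**Figure D5:**
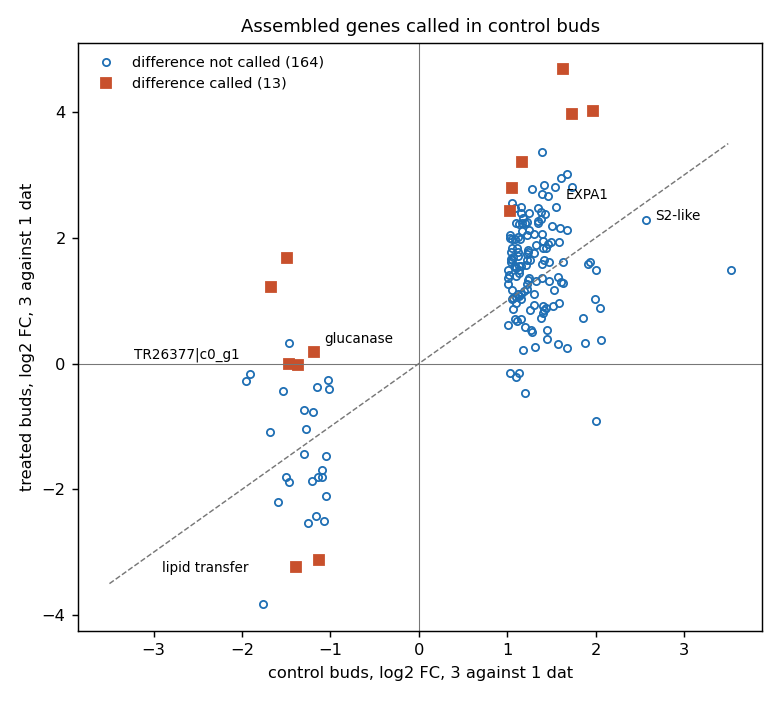
Log2 FC between 3 and 1 dat in control (horizontal axis) and treated buds (vertical axis) of the 177 assembled genes called in control buds and tested in both. Each point is a gene, red squares are the 13 whose change differed between treatments by the test of the difference, and the dashed line marks equal log2 FC. Most points lie in the upper right and lower left, where 167 genes had the same sign.

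The difference between the treated and the control change was tested over the 12 libraries. Of 62860 transcripts 63 (0.1%) were called, 39 higher and 24 lower in treated buds, and 27 with the tree as a block. Rescaling by median ratios gave 16 higher and 20 lower. With isoforms summed, 312 of 29114 genes (1.07%) were called, and 204 with the block. The glucanase (TR7096|c0_g1) was among them. In treated buds it stood at 134, 115 and 109 FPKM at 1 dat and at 170, 155 and 93.5 FPKM at 3 dat, with overlapping groups (log2 FC 0.18), so that the change was higher by 1.37 than in control buds (adjusted p = 0.0243). The lipid transfer protein was lower in both, with a log2 FC of -3.23 in treated buds and a difference of -1.84 (adjusted p = 0.0338).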

How the data were processed

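The libraries were stranded mRNA libraries of pooled flower buds. The authors trimmed the reads with Trimmomatic 0.33, assembled them with Trinity and CD-HIT-EST, mapped them with STAR, whose version is not given in the sources used here, and estimated FPKM with eXpress 1.5.1. The deposited FPKM values were used as they stand, and whole reads could not be recovered from them. Each sample's group and tree come from the labels.

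Transcripts averaging 0.5 FPKM or more in a fit's libraries were tested with limma 3.58.1 (trended, moderated variances) in R 4.3.3 on log2(FPKM + 0.5), with Benjamini-Hochberg adjustment over all tested. Tables and figures were made with Python 3.11.15, pandas 2.3.3, numpy 2.4.6 and matplotlib 3.10.9. The test was checked on simulated data. Replicates are separate trees. Since the labels give each group the same trees, the tree was tried as a block, although deviations from the group means did not correlate within a tree between 1 and 3 dat (r = -0.002, -0.04 and -0.006 in trees 4, 5 and 6).

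The comparison and the 35 gene lists were chosen with earlier results of these data known. Named genes were to be called transcripts with a description and those the study names. As the 6-library fit called none, the genes named are calls of other fits and list members, chosen after their values were seen. Alternatives were other pseudocounts and filters, rescaling by median ratios, the block, array weights, all 21 libraries, summed isoforms, no fold threshold and leaving out each library.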

Additional observations from a re-analysis of the deposited data

Results flagged for a closer look

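These 14 results are the genes and transcripts picked for this text whose change between 1 and 3 dat differed between treated and control buds. The difference was called by limma's test over 12 libraries, which called 1.07% of all tested genes and 0.1% of all tested transcripts. The picks were made after their values were seen, so that their number is not a result. Each value is the treated minus the control log2 FC. With isoforms summed, it was -1.84 for the lipid transfer protein (TR15609|c0_g1) and 1.37 for the glucanase (TR7096|c0_g1). It was 1.47 for TR26377|c0_g1 and 1.35 for TR26377|c1_g1, undescribed genes that were lower at 3 dat in control buds and had log2 FC of 0.00 and -0.02 in treated buds. Sorbitol 6-phosphate dehydrogenase (TR10522|c0_g1), which makes the transport sugar of the rose family, went from 98.8, 88.8 and 99.0 to 77.0, 42.2 and 70.1 FPKM in control buds and from 152, 141 and 141 to 21.8, 15.4 and 17.8 FPKM in treated buds, a difference of -2.32 (adjusted p = 0.00364). A MYB-related protein 308-like gene (TR24348|c0_g2) was higher at 3 dat in control buds (log2 FC 0.47) and lower in treated buds (log2 FC -0.78), a difference of -1.25. Gibberellin-regulated protein 6 (TR10472|c0_g4) was higher in both, with a difference of 1.53 that the blocked fit did not call (adjusted p = 0.0846).

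Among transcripts, the difference was -6.08 for a phosphosulfolactate synthase isoform (TR36281|c0_g2_i1). It stood at 0.394, 5.60 and 1.39 FPKM and then 18.1, 19.5 and 19.5 FPKM in control buds, and at 13.0, 21.2 and 21.7 and then 2.24, 1.09 and 2.98 FPKM in treated buds. In control buds alone it was not called (adjusted p = 0.0930 with 21 libraries), and its summed gene had a log2 FC of -0.18. The difference was -4.35 for an isoform of an AN1 zinc finger stress-associated protein (TR26679|c0_g1_i4), which was listed near 0 at 1 dat and at 8.40, 3.63 and 7.20 FPKM at 3 dat in control buds. It was 2.25 for TR13099|c1_g1_i10, described as transmembrane and coiled-coil domain-containing protein 4-like (adjusted p = 0.0710 in the blocked fit). It was -1.07 for an AGL24-like MADS-box transcript (TR32357|c2_g2_i7), which had a log2 FC of -0.04 in control buds, and -1.57 for serine acetyltransferase 1 (TR8310|c0_g1_i1), an enzyme of cysteine synthesis. It was -2.78 for a glutathione S-transferase (TR33081|c1_g1_i1), and 3.61 for a secoisolariciresinol dehydrogenase-like transcript (TR12341|c0_g1_i2), which was not called with the block (adjusted p = 0.0537).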

How the results depend on the processing

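For control buds the count of called transcripts was 0 under the planned pseudocounts, filters, rescaling, block, array weights and without a fold threshold, and it was 76 with 21 libraries (62 with the tree as a replicate block) and 0 to 2 when single libraries were left out. With 21 libraries, leaving out single libraries gave 7 to 173. With isoforms summed it was 4 (0 with the block, 5 rescaled), and 0 to 23 with single libraries left out. The added fit of summed isoforms over 21 libraries gave 188, 196 with the block, 156 rescaled and 8 to 432 with single libraries left out. Calls of list members numbered 0, and 2 with isoforms summed, 4 with 21 libraries and 12 with both. Of everything tested, these fits called 0%, 0.0136%, 0.121% and 0.643%. The member counts are given without a share of the members tested and are not read as a result about the lists. In treated buds 2303 became 1272 without a filter, 802 with the block, 4028 without a fold threshold and 1024 to 1970 with single libraries left out. The difference called 63, and 113 without a filter, 36 rescaled, 27 with the block, 170 with 21 libraries (123 with the block), 312 with isoforms summed (204 with the block), 348 with both and 23 to 163 with single libraries left out. Of the 188 genes 173 were also called with the block, and 17 of the 19 described ones. The causes of these shifts were not tested. With single libraries left out, the sign turned for the AGL24-like transcript (log2 FC -0.07 to 0.03, positive without tree 5 at 3 dat), TR27007|c3_g3 (-0.24 to 0.04, positive without tree 5 at 1 dat) and TR40661|c0_g2 (-0.15 to 0.06, positive without tree 5 at 3 dat). Depth is unknown, so levels under 1 FPKM carry an unmeasured counting error.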

Other observations

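Other described genes differed between 1 and 3 dat in control buds without passing both thresholds. A phospholipid hydroperoxide glutathione peroxidase (TR9963|c0_g1), which reduces peroxidized lipids, stood at 349, 269 and 296 FPKM at 1 dat and at 174, 164 and 207 FPKM at 3 dat (log2 FC -0.74, SE 0.12, limma adjusted p = 0.136 with 21 libraries). A peroxidase 42-like gene (TR25207|c0_g1) went from 944, 1088 and 1005 to 819, 594 and 653 FPKM (log2 FC -0.57, adjusted p = 0.0742). A universal stress protein A-like gene (TR10328|c0_g1) went from 69.5, 63.7 and 74.6 to 49.5, 41.7 and 44.8 FPKM (log2 FC -0.61, adjusted p = 0.00664), under the fold threshold. A MYB family factor annotated as APL (TR25961|c0_g1), named after a regulator of phloem identity in *Arabidopsis*, went from 7.69, 7.45 and 6.70 to 13.7, 11.8 and 12.2 FPKM (log2 FC 0.75, adjusted p = 0.0125). In all 4 the groups did not overlap.

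Genes of sulfate assimilation were mixed, with 10 of 15 tested higher (17412 of 29388 over all genes) and 0 called by limma with 21 libraries, and 3 higher and 1 lower at an unadjusted p under 0.05 in the 6 libraries (11.7% and 5.31% of all genes). Among them 5'-adenylylsulfate reductase 3 (TR20138|c0_g1), which reduces activated sulfate, went from 8.85, 6.70 and 10.1 to 12.6, 25.6 and 16 FPKM (log2 FC 1.00, adjusted p = 0.0429), just under the fold threshold. A chromosome-associated kinesin KIF4 gene (TR33169|c1_g6), a motor protein of dividing cells, went from 8.25, 5.44 and 5.59 to 9.99, 16 and 13.3 FPKM (log2 FC 0.97, adjusted p = 0.0410).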
